A study of Mus musculus with 4 samples.

Results

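The interferon gamma and antigen presentation genes described here are 36 genes of the 23284 in the deposited lung tables, taken as the rows whose symbol equals a listed name, and each of the 36 stood in 1 row of both tables. They comprise 3 chemokines, 4 regulators of transcription, 11 interferon-inducible GTPases, 8 genes that make or carry peptides for class I molecules, 3 class I genes, 6 class II genes and Ido1. RNA of whole lung from C57BL/6 mice was sequenced in 4 libraries, 1 per group. The first was from Il22-/- mice sensitized and challenged with house dust mite (HDM), a source of asthma allergens, and it was set against wild-type mice treated in the same way. Both lungs were taken 48 h after the last dose. The other libraries were from wild-type mice that received recombinant IL-22 through the trachea, set against wild-type mice that received phosphate-buffered saline (PBS), and both were taken 24 h later without allergen. The sources used here give no ages, no doses, no account of how the Il22 allele was made and no number of animals behind a library.

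Interferon gamma is made by NK cells and T cells and acts through its receptor on genes that carry palindromic GAS sites, among them Irf1. IRF1 and relatives bind another kind of site, the interferon-stimulated response element (ISRE). The response raises chemokines that draw T cells, GTPases that attack the vacuoles of intracellular microbes, and both routes by which cells show peptides to T cells. Class I molecules present peptides cut by the proteasome inside nearly every cell, whereas class II molecules present material taken up by dendritic cells, macrophages and B cells. In lung, alveolar type II cells carry class II as well. Type I interferons induce many of the same genes.

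Values are FPKM, fragment counts scaled by transcript length and sequencing depth, so levels of different genes can be compared per length. Differences are those of log2(FPKM + 1), which understates changes of low genes. A gene was called higher or lower by a size rule, a difference of at least 1 in size with a mean FPKM of at least 1, and genes under that mean are termed not measured. With 1 library per group, no difference has a replicate check and no p-value was computed. The depth, estimated from the steps between low FPKM values, was 27.3 M reads in the knockout HDM library, 24.97 M for wild type with HDM, 28.9 M with IL-22 and 19.99 M with PBS. Where reads are given they are such estimates, and the exact binomial 95% intervals on their ratios cover counting error only. Il22 was listed at 0 in the knockout HDM library, against 0.362 FPKM or 8 reads in the wild-type HDM library, and was also listed at 0 in the IL-22 and PBS libraries. Sftpc, the surfactant protein that defines alveolar type II cells, stood between 30749 and 37820 FPKM in the 4 libraries.

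After HDM the knockout library was below wild type for every measured gene of the set. Of the 34 measured members 11 were called lower and none higher, whereas 2.42% of all 13285 measured genes were called lower and 0.549% higher. The median difference of the members was -0.84, against 0.03 for all measured genes. All 34 differences lay below 0, between -2.43 and -0.17, while 46.1% of all measured genes lay below 0. Under a size rule of 1.5 only Cxcl10 was called. The 11 called genes were the chemokines Cxcl10 and Cxcl9, the GTPases Gbp6, Tgtp1, Irgm1, Irgm2 and Iigp1, the class I genes B2m and H2-K1, and the class II genes H2-Ab1 and Cd74. Cxcl11 and Ido1 were not measured. Summed over the 36 genes, the FPKM made up 1.01% of the total in the knockout HDM library and 2.09% in the wild-type HDM library.

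With IL-22 in an unchallenged lung, no member was called in either direction, where 0.189% of 13233 measured genes were called lower and 0.597% higher. The 35 measured members had a median difference of -0.12, against 0.04 for all measured genes. Of these members 27 lay below 0 and 8 above (20 lay below 0 once both libraries were scaled to a common total), and all but the chemokines stayed between -0.27 and 0.19. Cxcl9 and Cxcl10 stood apart from the rest of the set, at 0.89 and 0.65.

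**Figure D1:**
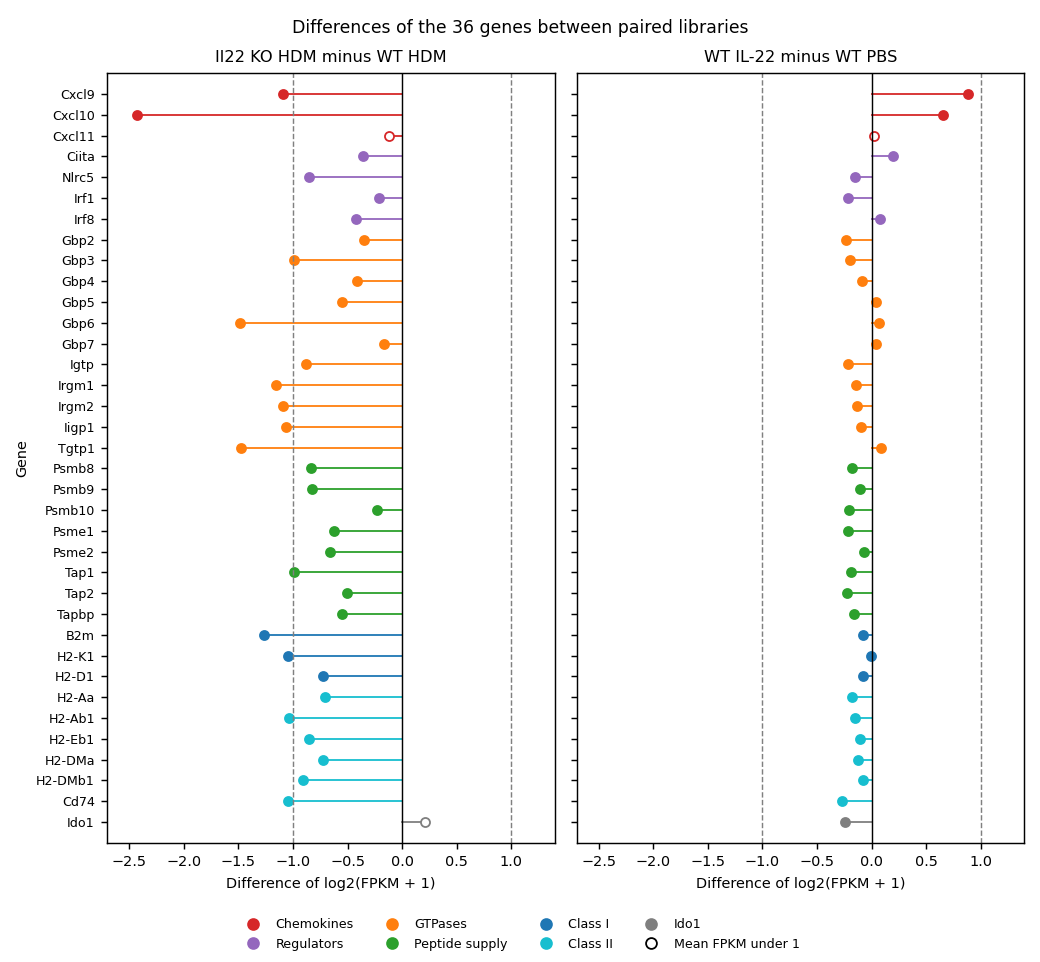
Difference of log2(FPKM + 1) for each of the 36 genes, coloured by gene group, with the knockout minus wild type after HDM on the left and IL-22 minus PBS on the right; dashed lines mark differences of -1 and 1, and open points have a mean FPKM under 1. On the left all 34 filled points lie below 0 and 11 pass -1, and on the right only Cxcl9 and Cxcl10 lie far above 0.

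**Figure D2:**
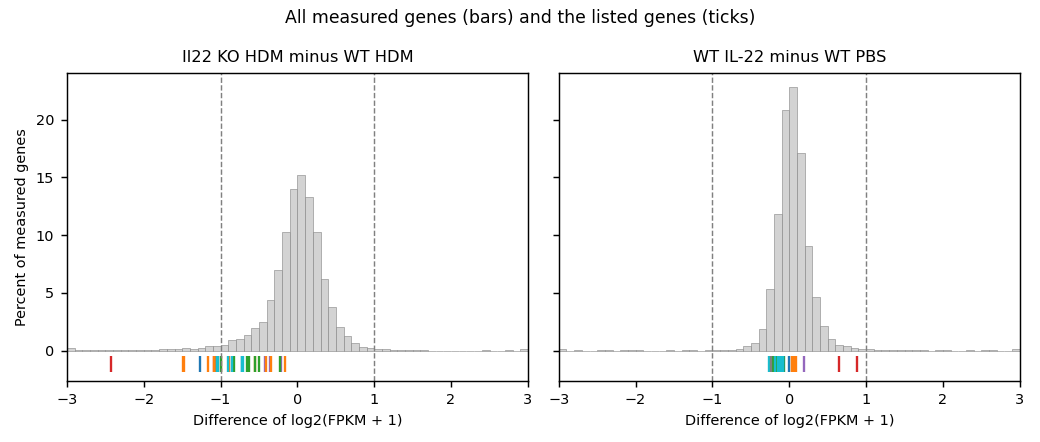
Percent of all measured genes in steps of 0.1 of the difference of log2(FPKM + 1) (grey bars; differences beyond 3 in size are counted in the outermost bars), with a coloured tick for each measured member under the bars and the same colours as in the plot of single genes. The members have a median of -0.84 in the HDM libraries, left of the bulk of genes, and of -0.12 in the IL-22 and PBS libraries, within it.

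The chemokine genes Cxcl9, Cxcl10 and Cxcl11 lie side by side on chromosome 5 of mm10. Cxcl9 and Cxcl10 encode ligands of CXCR3, the receptor of type 1 helper T cells, cytotoxic T cells and NK cells, whereas GENCODE lists Cxcl11 as a polymorphic pseudogene, and C57BL/6 mice are known to lack a functional protein from it. Cxcl10 (92346638 to 92348889) had the largest difference of the set. It stood at 1.39 FPKM or 34 reads in the knockout HDM library, against 11.9 FPKM or 265 reads in the wild-type HDM library, a level 8.55-fold lower in the knockout with a read ratio of 0.117 (0.0796 to 0.168). Cxcl9 (92321347 to 92328079) had 0.508 FPKM or 37 reads in the knockout HDM library, against 2.21 FPKM or 149 reads in wild type, which is 4.36-fold lower. Because its levels are low, its difference on the log2(FPKM + 1) scale was -1.09. Cxcl11 (92359544 to 92365485) was listed at 0 in the knockout HDM library and stood at 0.0867 FPKM in wild type.

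In the unchallenged lungs Cxcl9 and Cxcl10 were higher with IL-22 than with PBS. Cxcl9 had 1.64 FPKM or 127 reads with IL-22, against 0.426 FPKM or 23 reads with PBS, a read ratio of 3.82 with an interval of 2.44 to 6.25. Cxcl10 had 3.89 FPKM or 100 reads with IL-22 and 2.11 FPKM or 38 reads with PBS, a read ratio of 1.82 (1.24 to 2.72). Neither passed the size rule, although the counting intervals lie above 1. With a pseudocount of 0.1 in place of 1, Cxcl9 was called higher at 1.72. The receptor gene Cxcr3 stood at 1.52 FPKM with IL-22 against 1.31 with PBS, and at 0.936 in the knockout HDM library against 1.56 after HDM in wild type. Markers of monocytes and interstitial macrophages, cells that can make these chemokines, were called higher in 4 of 12 measured genes with IL-22 and their summed FPKM was 582 against 373 with PBS. After HDM 6 of these 12 were called lower in the knockout, with sums of 272 in the knockout and 612 in wild type. Summed, these markers moved with the chemokines in both comparisons, although 2 of the 12 lay below 0 with IL-22. Of 9 measured alveolar macrophage markers, 8 lay below 0 with IL-22 and 1 was called higher. Their median was -0.18, and their sums were 599 FPKM with IL-22 and 541 with PBS. The part of either marker list in the result was not tested.

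The stretches before the start sites of the chemokines are shown because Cxcl9 and Cxcl10 moved together in both comparisons. Promoter sequences here are from RefSeq on GRCm38.p6, the assembly called mm10, where 26 of the 36 members had an entry. Positions count back from base -1, just before the first start site listed, and each stretch runs 5′ to 3′ to base -1. Capitals mark matches on either strand to the ISRE (GAAA, any 2 bases and GAAA again), the GAS (TTCNNNGAA), the Y box (CTGATTGG), bound by NF-Y, or a kappaB site (GGGA, any base and TTTCC). Over windows of 250 bases before and 50 after 27025 start sites, 3.49% held the ISRE, 8.47% the GAS, 4.31% the Y box and 0.385% the kappaB site. Cxcl10 had an ISRE match at base -213 and a Y box at -54, and Cxcl9 a Y box at -65. The stretches lie on the minus strand of chr5:92348890-92349112 and chr5:92328080-92328179.
Cxcl10: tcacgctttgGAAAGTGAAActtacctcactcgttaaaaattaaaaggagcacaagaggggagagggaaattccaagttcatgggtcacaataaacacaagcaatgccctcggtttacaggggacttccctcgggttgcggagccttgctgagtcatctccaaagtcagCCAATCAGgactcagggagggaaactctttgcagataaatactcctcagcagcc
Cxcl9: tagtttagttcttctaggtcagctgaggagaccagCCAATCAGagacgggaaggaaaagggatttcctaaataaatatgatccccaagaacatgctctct

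The cytokine itself was near the limit of detection. Ifng had 2 reads in the knockout HDM library and 4 in the wild-type HDM library, and 11 reads with IL-22 against 3 with PBS. The read ratios had intervals of 0.0414 to 3.19 and 0.670 to 14.2, so a difference was not detectable at this depth. Its receptor chains went apart after HDM, with Ifngr1 at 108 FPKM in the knockout against 75.1 in wild type, and Ifngr2 at 44.4 against 61.8. Neither difference, 0.52 and -0.47, passed the size rule. Socs1, the feedback inhibitor of this pathway, was called lower after HDM, at 1.799 FPKM in the knockout against 5.19 in wild type. Stat4, which relays IL-12 signals, had a difference of -0.61 and was not called. In the IL-22 comparison Socs1 had the largest difference of a list of interferon gamma signalling genes, at 2.48 FPKM with IL-22 against 1.77 with PBS, and was not called.

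None of the 4 regulators was called after HDM, and their differences lay between -0.85 and -0.21. Irf1 (chromosome 11, 53770014 to 53778374) stood at 40.1 FPKM in the knockout HDM library, 46.7 in the wild-type HDM library, 40.2 with IL-22 and 46.9 with PBS. Irf8, a transcription factor of myeloid and dendritic cell development, stood at 11.5 FPKM in the knockout HDM library against 15.7 in wild type, and at 17.99 with IL-22 against 16.97 with PBS. Ciita (chromosome 16, 10480059 to 10528418), the coactivator that switches on class II genes, had 2.73 FPKM in the knockout HDM library and 3.78 in wild type, a difference of -0.36. Its counterpart for class I, Nlrc5 (chromosome 8, 94434356 to 94527272), had 1.65 FPKM or 304 reads in the knockout HDM library against 3.79 FPKM or 638 reads in wild type. The level of Nlrc5 was 2.29-fold lower in the knockout, with a read ratio of 0.436 (0.379 to 0.5002), but at these low values its difference of -0.85 fell short of the rule. With a pseudocount of 0.1 in place of 1 it was called lower, at -1.15. None of the 4 regulators was called in the IL-22 comparison.

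The 11 GTPases fall into 2 families. Guanylate-binding proteins (Gbp2 to Gbp7) coat vacuoles and free bacteria, and the immunity-related GTPases (IRG) comprise the effectors Iigp1 and Tgtp1 and the regulators Igtp, Irgm1 and Irgm2. After HDM 5 of the 11 were called lower in the knockout, 4 of them IRG genes, and the median difference of the 11 was -0.99. Tgtp1 (chromosome 11, 48985327 to 48994172) had 9.77 FPKM in the knockout HDM library, 29.0 in wild type, 6.996 with IL-22 and 6.54 with PBS. Irgm1 (chromosome 11, 48861968 to 48871683) stood at 14.6, 33.8, 12.3 and 13.6 FPKM in the same order. For both genes the wild-type HDM library was the high one and the other 3 lay closer together. Irgm2 had 11.1 FPKM in the knockout HDM library against 24.9 in wild type, Iigp1 (chromosome 18, 60376027 to 60392634) 16.3 against 35.3, and Igtp 13.6 against 25.9. The difference of Igtp, -0.89, was the smallest of the 5 IRG genes.

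The guanylate-binding proteins spread more widely. On chromosome 5, Gbp6 (105270702 to 105293698) had 4.90 FPKM in the knockout HDM library against 15.5 in wild type, 3.17-fold lower, while Gbp4 (105115767 to 105139586) had 7.35 against 10.1. The 4 genes clustered on chromosome 3 had a median difference of -0.45. Among these, Gbp3 (142560026 to 142573209) was at 13.2 FPKM in the knockout against 27.3 in wild type, just short of the rule at -0.99, whereas Gbp7 (142530342 to 142550149) was at 11.2 against 12.7. Gbp2 had 38.1 FPKM in the knockout HDM library against 48.7 in wild type, and Gbp5 2.95 against 4.79. With IL-22 the 11 GTPases ranged from -0.24 to 0.09. Some values are uncertain because copies of these genes can share reads. Of the windows of 50 bases in the transcript of Tgtp1, 91.4% also occur in other genes, mainly Tgtp2. For Gbp6 the share was 90.2%, all of it found in Gm43302. Added together, Tgtp1 and Tgtp2 had 23.1 FPKM in the knockout HDM library against 57.5 in wild type, and Gbp6 and Gbp10 had 7.12 against 23.02. The share of Gbp6 windows in Gbp10 is not given here, so the second sum does not settle the level of Gbp6.

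Of 8 measured further GTPases outside the 36, all lay below 0 after HDM and 3 were called lower. Gm12250, which encodes the IRG protein Irgb10, stood at 1.04 FPKM in the knockout against 4.43 in wild type, Gbp10 at 2.23 against 7.52, and Tgtp2 at 13.3 against 28.5. None of 7 was called with IL-22, where the largest difference was that of Gvin1, at 1.403 FPKM with IL-22 against 2.17 with PBS.

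The start sites of 6 GTPase genes are shown because those of the IRG genes share an arrangement. An ISRE match stood before the start of all 8 GTPase members with a promoter entry, namely Gbp2, Gbp3, Gbp5, Gbp7, Igtp, Irgm1, Irgm2 and Tgtp1. In Igtp, Irgm2 and Tgtp1 a GAS match and an ISRE match follow each other with 2 bases between them, so that their starts lie 11 bases apart. This arrangement was noticed on reading the sequences. In the 250 bases before the start it was found in 5 of 27025 genes, 0.0185%, the other 2 being Tgtp2 and Gm12185, which lie on chromosome 11 as well. Because it was defined from these members, the share is a count and not a test. Copies are among the 5 genes, as 89.4% of the windows in the Tgtp1 transcript occur in Tgtp2. Gm12185 had a difference of -0.50 after HDM, with 0.741 FPKM in the knockout against 1.46 in wild type. Irgm1, whose difference of -1.16 exceeded that of Igtp, held 2 overlapping ISRE matches and no GAS match in its window, as did Gbp3. In order, the stretches are the plus strand of chr11:58199456-58199555 and chr11:58214877-58214976, the minus strand of chr11:48992247-48992346 and chr11:48871421-48871520, and the plus strand of chr3:142620563-142620662 and chr3:142559944-142560043.
Igtp: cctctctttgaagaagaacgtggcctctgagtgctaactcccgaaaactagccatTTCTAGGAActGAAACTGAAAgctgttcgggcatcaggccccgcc
Irgm2: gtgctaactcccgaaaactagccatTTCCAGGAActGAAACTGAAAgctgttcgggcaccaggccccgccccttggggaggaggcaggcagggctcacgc
Tgtp1: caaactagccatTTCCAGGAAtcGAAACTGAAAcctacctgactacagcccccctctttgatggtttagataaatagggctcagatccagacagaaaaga
Irgm1: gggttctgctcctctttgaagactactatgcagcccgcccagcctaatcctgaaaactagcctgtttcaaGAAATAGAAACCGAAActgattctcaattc
Gbp2: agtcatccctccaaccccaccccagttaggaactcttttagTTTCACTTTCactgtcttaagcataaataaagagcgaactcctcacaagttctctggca
Gbp3: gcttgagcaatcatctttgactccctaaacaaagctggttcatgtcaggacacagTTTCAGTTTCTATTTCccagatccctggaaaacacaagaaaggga
The match itself is a description of these letters, and no binding was measured.

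**Figure D3:**
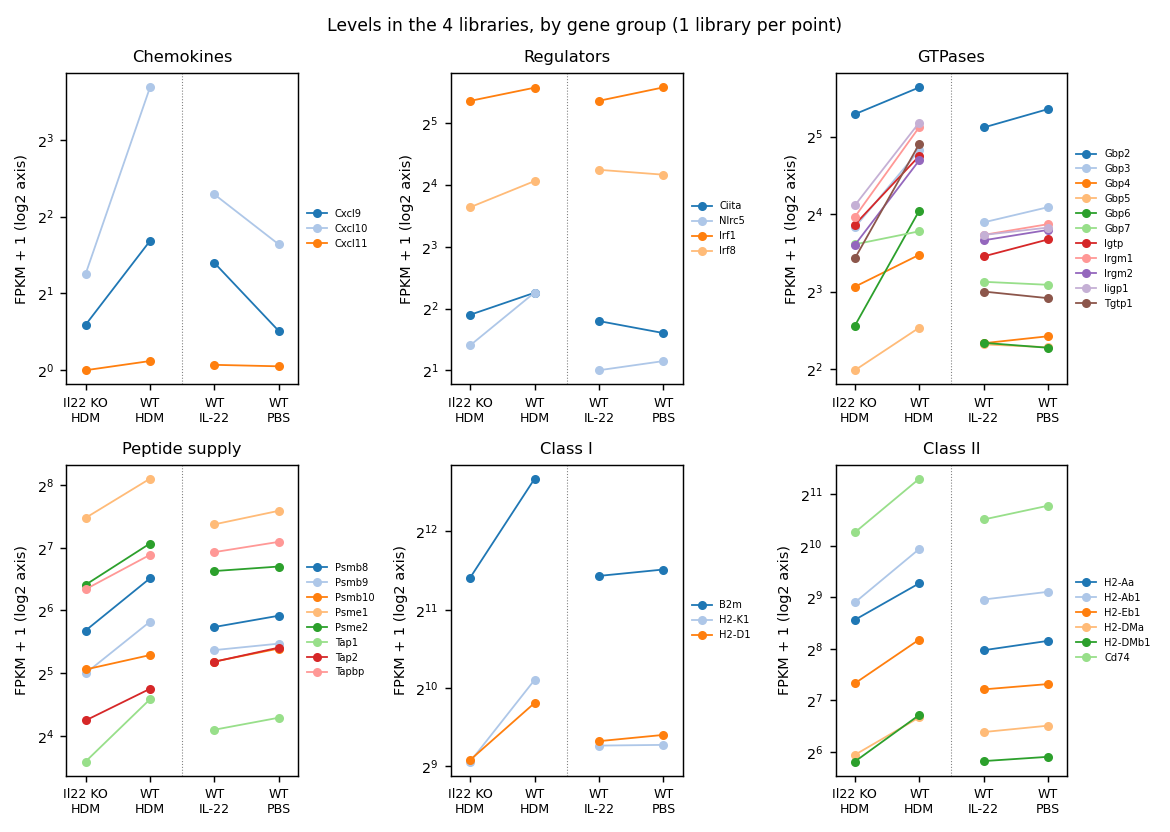
FPKM + 1 on a log2 axis in the 4 libraries for the chemokines, regulators, GTPases, peptide supply genes, class I genes and class II genes, with 1 point per library and lines joining the libraries of the same table. Levels across the dotted line come from tables that may have been normalized separately; for 30 of the 36 genes the wild-type HDM library is the highest of the 4.

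Peptides for class I molecules are cut by the immunoproteasome, in which Psmb8, Psmb9 and Psmb10 take the places of the constitutive subunits Psmb5, Psmb6 and Psmb7. No gene among the 8 of this group was called after HDM, but all lay below 0, between -0.99 and -0.23. Psmb8 (chromosome 17, 34197721 to 34201454) had 50.2 FPKM in the knockout HDM library, 90.3 in wild type, 52.3 with IL-22 and 59.4 with PBS. Psmb9 (chromosome 17, 34181987 to 34187764) had 30.9, 55.5, 40.3 and 43.3 FPKM in the same order, and Psmb10 had 32.3, 38.1, 35.3 and 41.0. The wild-type HDM library was thus the highest for Psmb8 and Psmb9 but not for Psmb10, which was highest with PBS. Psme1 and Psme2, the subunits of the PA28 activator that docks on the proteasome, were at 177 against 274 FPKM and 84.0 against 133 in the knockout and wild-type HDM libraries. Of the windows in the Psme2 transcript, 59.3% occur in Psme2b, so its value is uncertain.

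The constitutive subunits differed less. Psmb5 stood at 67.4 FPKM in the knockout HDM library and 62.7 in wild type, Psmb6 at 108 against 110.1, and Psmb7 at 116 against 115. None of 9 constitutive proteasome genes was called, their median was -0.02, and the largest difference, that of Psme4, was -0.32. The FPKM ratio of Psmb8 to Psmb5 was accordingly 0.745 in the knockout HDM library, 1.44 in wild type, 0.686 with IL-22 and 0.751 with PBS. For Psmb9 over Psmb6 the ratio was 0.285 in the knockout against 0.504 in wild type, and for Psmb10 over Psmb7 0.279 against 0.331.

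**Figure D4:**
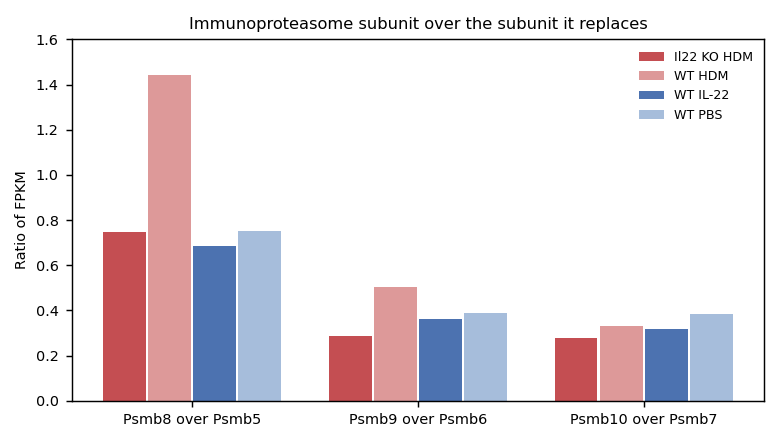
Ratio of FPKM of each immunoproteasome subunit to the constitutive subunit it replaces, with 1 bar per library. The ratio of Psmb8 to Psmb5 is 0.745 in the knockout and 1.44 in the wild-type HDM library, and the ratios of Psmb10 to Psmb7 lie between 0.279 and 0.384 in the 4 libraries.

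Tap1 and Tap2 form the pump that carries peptides into the endoplasmic reticulum, and Tapbp (tapasin) links it to class I molecules. Tap1 (chromosome 17, 34187553 to 34197225) had 11.02 FPKM in the knockout HDM library against 22.9 in wild type, a difference of -0.99 that just missed the rule. Tap2 (34203527 to 34216321) had 17.9 against 25.9, with 35.3 FPKM with IL-22 and 41.4 with PBS. Tapbp had 79.9 against 117 in the HDM libraries, 121 with IL-22 and 136 with PBS. For Tap2 and Tapbp both HDM libraries were thus below the unchallenged ones, unlike Tap1. Of 5 class I loading genes of the endoplasmic reticulum outside the set, none was called in either comparison. Calr, the chaperone calreticulin, had the largest difference in both, at 297 FPKM in the knockout HDM library against 405 in wild type, and at 474 with IL-22 against 366 with PBS. Pdia3 and Canx, which help fold class I chains, had differences of -0.35 and -0.23 after HDM and of 0.19 and 0.13 with IL-22.

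Psmb9 and Tap1 are transcribed in opposite directions from shared sequence: 225 bases of their upstream windows are the same DNA (chr17:34187331-34187555). Their differences after HDM were -0.82 and -0.99, and with IL-22 -0.10 and -0.19. The stretch before Psmb9 is shown for this reason, on the minus strand of chr17:34187331-34187430, with a Y box at base -11 in capitals. For Tap1 the same letters stand on the other strand at base -222.
Psmb9: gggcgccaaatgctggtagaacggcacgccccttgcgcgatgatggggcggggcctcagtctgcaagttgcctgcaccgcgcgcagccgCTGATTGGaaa

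Class I molecules consist of a heavy chain, here H2-K1 or H2-D1, and the light chain B2m, without which they do not reach the cell surface. B2m (chromosome 2, 122147686 to 122153083) was among the most abundant transcripts of the lung, the 16th highest gene in the knockout HDM library and the 5th highest in wild type. It stood at 2723 FPKM in the knockout HDM library, 6535 in wild type, 2763 with IL-22 and 2924 with PBS. The wild-type HDM library alone was high, and the level in the knockout was 2.40-fold lower. H2-K1 (chromosome 17, 33996017 to 34000347) had 533 FPKM in the knockout HDM library, 1101 in wild type, 614 with IL-22 and 618 with PBS. H2-D1 (35262730 to 35267499) had 542, 897, 639 and 675 in the same order, a difference after HDM of -0.73 that was not called. The FPKM ratio of H2-K1 to H2-D1 was 0.985 in the knockout HDM library and 1.23 in wild type. In the IL-22 comparison the 3 class I genes lay between -0.08 and -0.01, and scaling both libraries to a common total put all 3 above 0.

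Of 13 measured non-classical class I genes, which include the Q and T regions of the same locus, 1 was called lower after HDM and 12 lay below 0. H2-Q7 was the called gene, at 34.9 FPKM in the knockout against 75.4 in wild type. H2-Q4 and H2-T23 followed with differences of -0.74 and -0.72. Cd1d1 and Mr1, class I-like genes outside the locus, stood at 3.09 against 3.06 FPKM and at 14.2 against 14.4. With IL-22 none was called, and the largest differences were -0.51 for H2-T22, 0.46 for H2-T24 and 0.26 for Mr1. Genes of this family resemble one another, and 14.3% of the windows of H2-D1 and 8.79% of those of H2-K1 occur in other genes.

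Upstream of B2m an ISRE match at base -139 was followed by a kappaB match at -126 in chr2:122147538-122147686. H2-D1 had a Y box at -53 in chr17:35262994-35263093. H2-K1, with a difference of -1.04 after HDM, had a Y box at base 9 past the start and no other match. The stretches of B2m and H2-D1 are shown on the plus strand, since B2m had the largest difference of the class I genes and H2-D1 the smallest. The part of these matches in the differences was not tested.
B2m: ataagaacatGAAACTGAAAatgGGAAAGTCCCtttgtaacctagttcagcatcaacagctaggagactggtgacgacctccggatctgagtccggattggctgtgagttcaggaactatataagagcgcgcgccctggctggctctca
H2-D1: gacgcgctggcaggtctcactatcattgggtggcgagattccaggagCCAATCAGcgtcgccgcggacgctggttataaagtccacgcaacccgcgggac

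Class II molecules pair an alpha chain with a beta chain, H2-Aa with H2-Ab1 in the I-A molecule. H2-Eb1 is the beta chain of I-E, whose alpha chain C57BL/6 mice lack. The invariant chain Cd74 fills the groove until H2-DMa and H2-DMb1 exchange its remnant for a peptide. All 6 class II genes lay below 0 after HDM, in a narrow range from -1.04 to -0.71, with 2 called. Cd74 (chromosome 18, 60803848 to 60812652) had 1225 FPKM in the knockout HDM library, 2525 in wild type, 1457 with IL-22 and 1755 with PBS. H2-Ab1 (chromosome 17, 34257689 to 34269419) had 476, 980, 496 and 550 FPKM in the same order. For both the wild-type HDM library was the high one and the knockout HDM library the lowest of the 4. H2-Aa (34282744 to 34287823) had 377 FPKM in the knockout HDM library against 617 in wild type, and 250 with IL-22 against 284 with PBS. The FPKM ratio of H2-Aa to H2-Ab1 was 0.791 in the knockout HDM library and 0.629 in wild type, against 0.504 and 0.516 with IL-22 and PBS.

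The remaining class II genes lay within that range. H2-Eb1 was at 160 FPKM in the knockout HDM library against 289 in wild type, H2-DMa at 60.4 against 101 and H2-DMb1 at 55.1 against 104. A share of 27.2% of the windows of H2-DMb1 occurs in H2-DMb2, and the sum of both genes was 76.8 against 142. Among 11 measured genes of the class II pathway outside the set, 1 was called lower after HDM. This was Ctss, cathepsin S, the protease that trims the invariant chain, at 136 FPKM in the knockout against 396 in wild type. Cd86, a costimulator on antigen-presenting cells, and Ifi30, a thiol reductase of the same compartment, followed with -0.88 and -0.86. The factors that bind class II promoters with Ciita did not share this, with Rfx5 at 4.98 FPKM in the knockout against 4.84 in wild type, Rfxank at 3.46 against 2.39 and Rfxap at 6.49 against 6.54.

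With IL-22 the 6 class II genes lay between -0.27 and -0.08, with Cd74 the lowest. Scaling to a common total left 4 of the 6 below 0. Of the 11 class II pathway genes none was called, and the largest differences were 0.42 for the gene now named Marchf1, a ubiquitin ligase that removes class II from the surface, 0.37 for Cd86 and 0.31 for Cd40.

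The class II promoters with an entry that matched a motif, those of H2-Aa and H2-Eb1, are shown because class II genes are known for a conserved Y box near the start. H2-DMa and H2-DMb1 had an entry but no exact match to any of the motifs, and H2-Ab1 and Cd74 had no entry. Near matches were not counted. The H2-DMa window, 34122582 to 34122881, lies inside the span of the gene, 34119541 to 34139101, so sequence before an earlier start was not searched. The Y box lay at base -51 in H2-Aa, on the minus strand of chr17:34287824-34287923, and at -62 in H2-Eb1, on the plus strand of chr17:34305767-34305866.
H2-Aa: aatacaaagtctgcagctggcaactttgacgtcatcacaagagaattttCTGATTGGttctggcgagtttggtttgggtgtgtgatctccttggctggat
H2-Eb1: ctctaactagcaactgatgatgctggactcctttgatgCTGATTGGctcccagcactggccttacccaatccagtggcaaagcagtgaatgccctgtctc

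In whole lung fewer cells of a type and less RNA per cell cannot be told apart, so markers of the cells that carry class II are given beside these values. The summed class II level was 2353 FPKM in the knockout HDM library and 4615 in wild type, 1.96-fold lower in the knockout. B cell markers did not differ in this way: none of 8 measured genes was called, and their sums were 53.6 FPKM in the knockout against 55.0 in wild type, with Cd79a at 18.6 against 18.9. Of 9 measured dendritic cell markers 1, Batf3, was called lower, and the sums were 39.0 against 51.9 FPKM. Of the 9, 8 lay below 0, with a median of -0.56, and the exception was Clec9a, a marker of type 1 dendritic cells, at 11.7 against 6.93. The sum of the monocyte and interstitial macrophage markers was 2.25-fold lower in the knockout, as was the class I sum, 3798 FPKM in the knockout against 8532 in wild type. In the IL-22 comparison these markers and the class I and class II genes went apart, with medians of 0.83, -0.08 and -0.14. Alveolar macrophage markers had sums of 669 FPKM in the knockout against 2899 in wild type, 4.33-fold lower and the largest such ratio among the 8 cell types. Most of that sum was Chi3l3, at 367 against 2438 FPKM, so the ratio rests mainly on 1 gene. Of these 9 genes 7 lay below 0, and 3 were called lower, namely Chi3l3, Fabp4 and Itgax. The 9 had a median of -0.80, less low than the -1.12 of the monocyte and interstitial macrophage markers. Alveolar type II markers had no called gene among 8, and of 9 endothelial markers 1, Clec14a, was called higher. The part of these cells in the result was not tested.

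The markers of cells that make interferon gamma were as follows. NK cell markers had sums of 43.4 FPKM in the knockout HDM library and 45.1 in wild type, with none of 8 measured genes called. T cell markers had sums of 42.9 against 62.4 FPKM, and 9 of 10 measured genes lay below 0 with none called. None of the markers of these 8 cell types was listed at 0 in any library. Type I interferon response genes, which share inducers with this set, were called lower in 16 of 20 measured genes after HDM with a median of -1.42, and in none of 16 with IL-22.

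**Figure D5:**
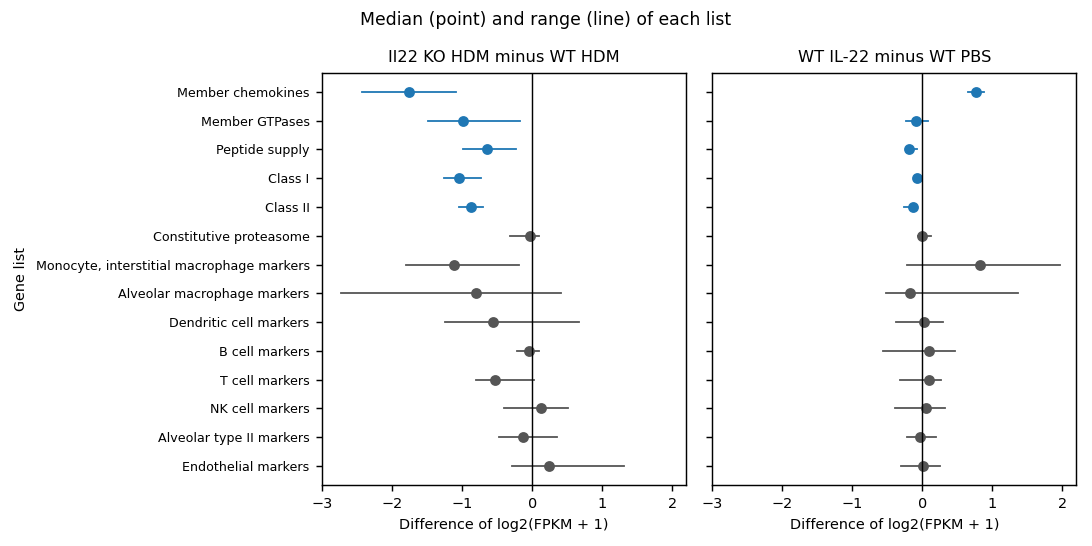
Median (point) and range (line) of the difference of log2(FPKM + 1) over the measured genes of each list, with gene groups of the set in blue and other lists in grey; the knockout minus wild type after HDM is on the left and IL-22 minus PBS on the right. On the left the class I and class II medians are -1.04 and -0.88. Marker medians there are -1.12 for monocytes and interstitial macrophages, -0.80 for alveolar macrophages, -0.56 for dendritic cells and -0.54 for T cells. Those of alveolar type II cells, B cells, NK cells and endothelium are -0.13, -0.04, 0.12 and 0.24. On the right the medians are -0.08 for class I and -0.14 for class II. The monocyte and interstitial macrophage markers lie apart from these at 0.83, and the alveolar macrophage markers are at -0.18.

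Ido1 (chromosome 8, 24584136 to 24597009), the tryptophan-degrading enzyme that interferon gamma induces in many cells, was under the filter after HDM and, unlike every measured member, lay above 0 there. It had 0.946 FPKM or 35 reads in the knockout HDM library against 0.680 FPKM or 23 reads in wild type, a read ratio of 1.39 with an interval of 0.799 to 2.47. With IL-22 it had 33 reads against 32 with PBS, a ratio after depth of 0.714 (0.425 to 1.20). No difference was detectable at this depth in either comparison.

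Because separate normalization of the 2 tables is possible, levels from both are only set side by side here. The wild-type HDM library was the highest of the 4 for 30 members, the PBS library for 5 and the IL-22 library for 1, Irf8. The knockout HDM library was the highest for none, and it lay below the PBS library for 24 of the 36. By group this held for all 8 peptide supply genes, all 3 class I genes and 4 of the 6 class II genes, but for 4 of the 11 GTPases. As a share of the total FPKM of its library, the class I group made up 0.563% in the knockout HDM library, 1.25% in the wild-type HDM library, 0.627% with IL-22 and 0.612% with PBS. The class II group made up 0.349%, 0.677%, 0.388% and 0.420% in the same order.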

How the data were processed

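RNA of 4 lung libraries, 1 per group, was taken from GEO's deposited tables, with groups from the sample titles. The authors deposited FPKM values, with the HDM libraries in 1 table and the IL-22 and PBS libraries in another. CASAVA 1.8.2, TopHat2, Cufflinks 2.2.1 and build mm10 are named in the submitters' processing notes. The sources used here state no tool settings and no scaling between libraries. The tables' 23746 rows were joined on symbol and accession, 25 symbols that had become dates were restored by accession, and rows of 1 symbol were added, which left 23284 genes.

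Within each table, differences of log2(FPKM + 1) were taken for genes whose mean FPKM reached 1. All 36 members are named. Of each other list of pathway genes, called genes were named and, where fewer than 3 were called, those with the largest differences. Lists of cell type markers are given by counts, medians and summed FPKM, and not all of their called genes are named. The type I interferon list is given by its counts, and other genes named as examples were chosen after their values were seen. The interferon gamma signalling list is not reported here in full. The members and lists were chosen with earlier results of these data known. Depth was estimated from transcripts over 600 bases in GENCODE M21, as the reads at which the lowest values equal 1 read on the length less 200 bases. Between 63.6 and 72.7% of such values lay within 15% of it. Of low values up to 20 reads, those near 1 read included, 59.2 to 60.5% were whole reads to within 0.1 (20% by chance). The depth was set on the values near 1 read, so the 20% does not hold for them. Coordinates are from GENCODE M21, and 96.2% of rows matched a RefSeq accession of GRCm38. Shared windows of 50 bases were counted over GENCODE transcripts, a length chosen without knowing that of the reads. Of the steps, only the difference and the size rule were tested on simulated data. Alternatives were a pseudocount of 0.1, no filter, a mean FPKM of at least 5, median ratio scaling, scaling to a common total, and a size rule of 1.5. A further alternative, chosen after seeing the data, left out members that share most windows. The software was matplotlib 3.10.9, scipy 1.17.1, pandas 2.3.3, numpy 2.4.6 and Python 3.11.15.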

Additional observations from a re-analysis of the deposited data

How the results depend on the processing

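After HDM the members called numbered 14 with a pseudocount of 0.1, 13 with median ratio scaling, 11 with no filter or a common total, 10 with a mean FPKM of at least 5 and 9 of 31 without Gbp6, Tgtp1 and Psme2, whose transcripts share most of their windows with other genes. Only Cxcl10 was left under a size rule of 1.5, so 1 was called. The median difference was -0.85 with a pseudocount of 0.1, -0.83 with no filter, -0.87 with median ratio scaling, -0.83 with a common total and -0.83 without the 3 genes. All measured members lay below 0 in each of these settings, except that Ido1 lay above 0 with no filter. In the IL-22 comparison 1 member, Cxcl9, was called with a pseudocount of 0.1, at 1.72, and none in the other settings. The median was -0.13 with that pseudocount, -0.11 with no filter, -0.14 with a mean FPKM of at least 5, -0.16 with median ratio scaling, -0.021 with a common total and -0.14 without the 3 genes. The cause of these shifts was not tested. No call of a single member changed direction. Leaving out a library was not possible with 1 per group. No paired analysis was possible because each group has 1 library and the labels number none. Depth limits Ifng, Cxcl11 and Ido1, which had few reads or were under the filter.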
